A study of Homo sapiens with 12 samples.

Results

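The genes described here encode proteins of the complement and coagulation systems, the protease cascades of blood plasma, and the question was how their RNA levels changed when the RNA-binding protein IGF2BP1 was depleted. The 51 members were taken by gene symbol, and all were found among the 58174 genes listed for each cell line. Poly-A RNA was sequenced 72 h after siRNA transfection in 12 libraries. In Hep-G2, a liver cancer cell line, 3 libraries came from cells that received 15 nM of a control siRNA (siC) and 3 from cells that received 15 nM of an siRNA pool against IGF2BP1 (siI1). BE(2)-C, a neuroblastoma cell line, was treated with 25 nM of the same siRNAs, again with 3 libraries per group. Each tissue of origin was thus represented by 1 tumor cell line, and a knockdown by 1 siRNA pool. In Hep-G2, 13465944 to 15176939 reads fell on genes with siC and 13398903 to 14858343 with siI1. The ranges in BE(2)-C were 12852988 to 14662575 with siC and 13649325 to 15721210 with siI1.

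Most proteins of these cascades are secreted by hepatocytes. In coagulation, inactive precursors of serine proteases activate each other until thrombin cleaves fibrinogen to fibrin, while serpins and the protein C pathway restrain the reaction and plasmin dissolves the clot. Complement is started by antibodies, by sugars on microbes or spontaneously, converges on the cleavage of C3, and ends in a pore that is assembled from the terminal components. Regulators in plasma and on the cell surface protect the body's own cells. Several members, among them CD46, CD55, CD59 and PLAUR, are anchored in the cell membrane rather than secreted, so the list is wider than plasma proteins in the strict sense.

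Levels are given as FPKM, fragments scaled by gene length and library size, a scale that allows genes to be compared within a table. Changes are log2 fold changes of siI1 over siC on log2(FPKM + 0.1), where the added constant shrinks changes at low levels, and SE is the standard error. A gene was called higher or lower at an adjusted p below 0.05 in limma, adjusted over all tested genes of a cell line. The siI1 library 1 of Hep-G2 stood apart from its group. The standard deviation of its log2 differences from siI1 libraries 2 and 3 across genes was 0.29 and 0.30, against 0.19 between those 2 and 0.19 to 0.21 among the siC libraries. Counts of members in Hep-G2 are therefore also given without it.

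IGF2BP1 was measured first. In Hep-G2 its FPKM fell from 48.5, 46.6 and 50.8 in the siC libraries to 12.6, 10.7 and 10.7 in the siI1 libraries. All siI1 libraries lay below all siC libraries, by a log2 fold change of -2.10 (SE 0.08, adjusted p = 7.8e-06). BE(2)-C gave 21.3, 20.6 and 21.6 with siC and 4.85, 4.75 and 4.87 with siI1, with a log2 fold change of -2.11 (SE 0.05, adjusted p = 1.5e-05). The knockdown was thus present in every siI1 library of both cell lines.

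Marker genes matched the labelled cell lines. All 8 hepatocyte markers were tested in Hep-G2 and none of them was at 0, while none passed the filter on low values in BE(2)-C, where HNF4A, FOXA2, AFP and APOA2 were listed at 0 in every library. All 10 neuroblastoma markers were tested in BE(2)-C, with MYCN as the most abundant, whereas in Hep-G2 5 of them were at 0 and only DBH passed the filter. The hepatocyte markers in Hep-G2 summed to an FPKM of 9084, 9377 and 9148 in siC libraries and 11990, 13660 and 13870 in siI1 libraries, with ALB as the most abundant gene. Of these markers, 4 (50%) were higher (ALB, APOA1, HNF4A and FOXA2), 3 (37.5%) were lower (AFP, APOA2 and TTR), and APOB was not called. Of all tested genes in Hep-G2, 21.9% were higher and 23% lower. With libraries scaled to equal sums of FPKM, HNF4A was not called and APOB was lower. Without siI1 library 1, APOB was lower as well, with no marker losing its call. The neuroblastoma markers in BE(2)-C summed to 3857, 3627 and 3650 with siC and to 4069, 3951 and 4027 with siI1. Among them, 3 (30%) were higher and 4 (40%) lower, against 13.3% and 14.8% of all tested genes in BE(2)-C. MYCN was higher too under both other scalings. Of the 5 macrophage markers, CD14 was the only one tested in either cell line, higher in Hep-G2 (1.38, adjusted p = 0.00049) and lower in BE(2)-C (-1.20, adjusted p = 0.024). The other macrophage markers were at or near 0, with an FPKM of at most 0.117 in any library. Summed over that list, the FPKM went from 0.747, 0.909 and 0.683 to 2.41, 2.25 and 2.18 in Hep-G2, and 2.37, 1.39 and 2.07 against 0.650, 1.15 and 0.776 in BE(2)-C. Endothelial markers summed to at most 0.173 in any library of Hep-G2, with PECAM1 as the most abundant, and to at most 0.0802 in BE(2)-C. The part of these marker changes in the results below was not tested. In bulk RNA, fewer cells of a type and less RNA per cell cannot be told apart.

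In control cells, the members were largely a set of the liver-derived line. The mean FPKM with siC reached 0.1 for 48 of 51 members in Hep-G2 and for 16 in BE(2)-C, and it reached 10 for 26 and 2 members. Since the tables were normalized separately, these levels are set side by side without a test. SERPINA1, alpha-1-antitrypsin, the main inhibitor of neutrophil elastase, led in Hep-G2 with an FPKM of 829, 877 and 826 with siC. A2M, a broad trap for proteases, followed with 751, 666 and 725. C3, on which the complement pathways converge, had 256, 236 and 248. The highest siC values in BE(2)-C belonged to F12, the zymogen that starts the contact pathway, with 25.9, 22.3 and 23.9. PLAT, the tissue plasminogen activator, had 10.8, 10.3 and 10.3 there and CD46, a membrane cofactor for the cleavage of C3b, had 7.503, 7.44 and 7.76. F12 and PLAT had lower siC levels in Hep-G2, with means of 2.45 ± 0.52 and 0.132 ± 0.054 (SD, n = 3). C9, the pore-forming component, was listed at 0 in all libraries of both cell lines, and 3 reads would have given an FPKM of 0.0655 to 0.0760 in Hep-G2. In BE(2)-C, 16 members were at 0 in every library, and 3 reads would have corresponded to 0.0271 to 0.0993 FPKM, a limit that covers counting error only, since PCR reads without molecular identifiers are not independent molecules.

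**Figure D1:**
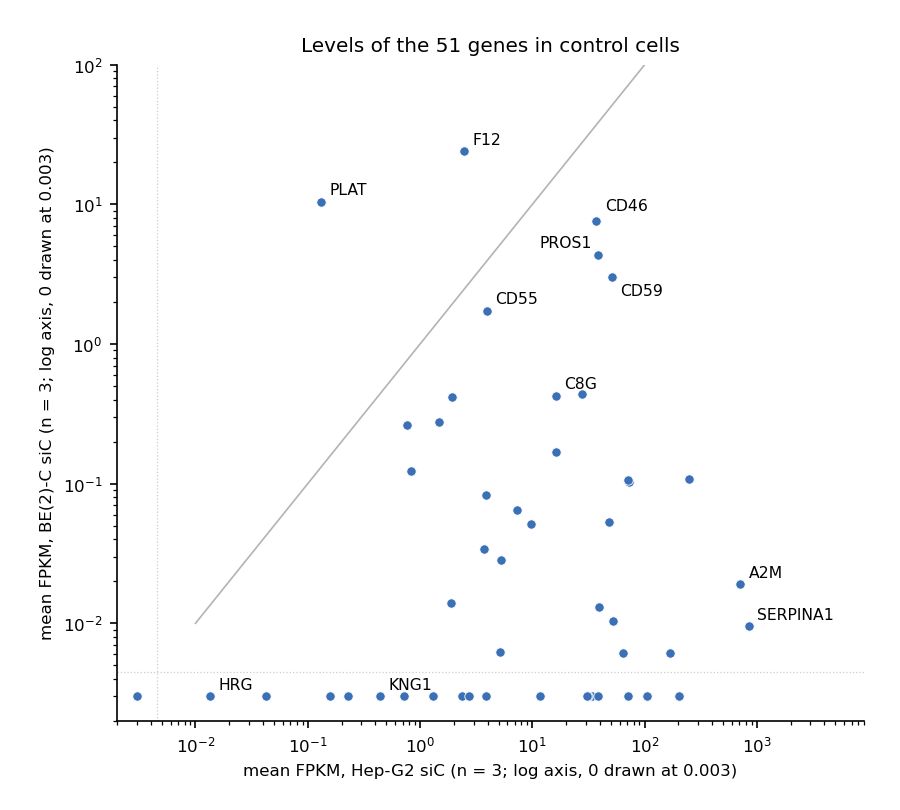
Mean FPKM of the 51 members in siC cells of BE(2)-C (vertical, log axis) against Hep-G2 (horizontal, log axis), n = 3 libraries each, with 0 drawn at 0.003 and a diagonal at equal values. F12 and PLAT lie above the diagonal, with means of 24.0 and 10.5 in BE(2)-C against 2.45 and 0.132 in Hep-G2. The 16 members at 0 in every library of BE(2)-C lie along the lower edge. KNG1, SERPIND1, MASP1 and C4BPB, at 0 in its siC libraries only, lie there too. So does TFPI, whose mean of 0.00222 in BE(2)-C is not 0 but lies below 0.003.

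Upon knockdown, more members of both cascades were higher than lower in Hep-G2. Of 51 members, 49 passed the filter on low values and 26 were higher, which is 53.1% of those tested, against 21.9% of all 19436 tested genes. The number of lower members was 11, or 22.4%, against 23% of all genes. The remaining 12 tested members were not called, and F9 and C9 were not tested. HRG passed the filter through its siI1 libraries alone, so its groups could not overlap, and its call is not used as support. Without HRG and all other genes that passed through 1 group alone, 25 of 48 members (52.1%) were higher and 11 (22.9%) lower, against 21.4% and 22.8% of all genes. The median log2 fold change of these 48 members was 0.36 as deposited, 0.20 with equal sums of FPKM and 0.45 with median centring, against 0.0038, -0.15 and 0.09 for all such genes. Without siI1 library 1, 26 of the 48 were higher and 10 lower, against 4420 and 4855 of all 19003 such genes. Scaling the libraries to equal sums of FPKM moved the median of all genes by -0.15. Of all called genes, 48.8% were higher as deposited, 35.5% with equal sums and 57.6% with median centring. The 48 members then split into 25 higher and 14 lower with equal sums and 26 and 9 with median centring. The 19003 genes that did not pass through 1 group alone gave 3026 higher and 5691 lower with equal sums. With median centring, they gave 4816 higher and 3568 lower. Of all tested protein-coding genes, 25.3% were higher and 30.5% lower. The summed FPKM of the 51 members took 1.36%, 1.27% and 1.31% of all FPKM with siC and 1.56%, 1.56% and 1.55% with siI1.

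**Figure D2:**
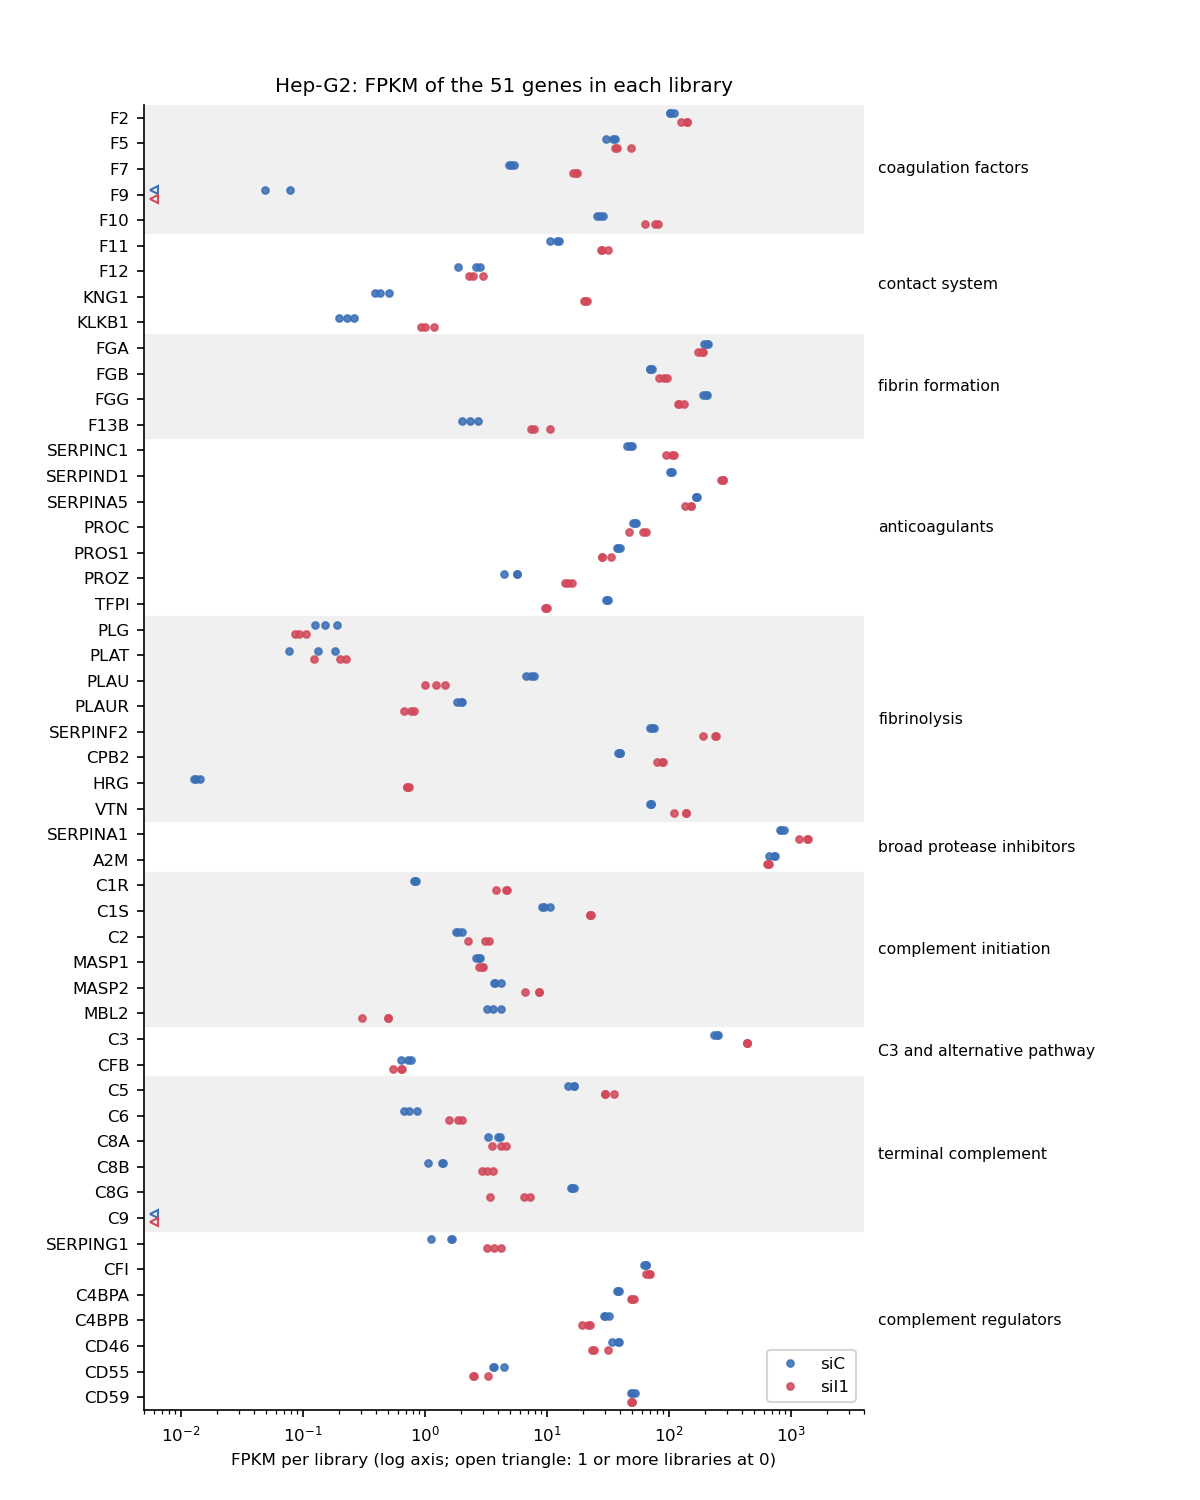
FPKM (horizontal, log axis) of each member in each of the 3 siC (blue) and 3 siI1 (red) libraries of Hep-G2, by role, where open triangles mark genes with 1 or more libraries at 0. KNG1 moves from 0.392 to 0.508 with siC to 20.1 to 21.3 with siI1, and MBL2 moves the other way.

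Among the coagulation factors of the common, extrinsic and intrinsic pathways, 3 of 4 tested members (75%) were higher and none was lower. Of all tested genes in Hep-G2, 21.9% were higher and 23% lower. The roles held few members each, and their shares were not tested against those of all genes. F7, the protease that binds tissue factor and starts the extrinsic pathway, had an FPKM of 5.45, 4.89 and 5.06 with siC and 16.4, 17.3 and 17.8 with siI1. F10, whose active form cleaves prothrombin, had 27.5, 29.1 and 25.8 with siC and 63.7, 77.5 and 81.3 with siI1. In both, the groups were far apart, although siI1 library 1 gave the lowest siI1 value. The log2 fold change was 1.72 for F7 (SE 0.07, adjusted p = 8.2e-06) and 1.42 for F10 (SE 0.10, adjusted p = 6.7e-05). F2, prothrombin, rose by 0.36 (adjusted p = 0.0040). F5, the cofactor of F10, had 0.26 (adjusted p = 0.13), and its siI1 values of 49.0, 36.4 and 37.7 were all above its highest siC value of 36.2. F9, the protease deficient in hemophilia B, had at most 3 reads per library and was not tested.

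F7 and F10 share a stretch of chromosome 13 with PROZ, which encodes a vitamin K-dependent cofactor for the inhibition of factor Xa, and all 3 lie on the plus strand within 66.6 kb (chr13:113105788-113172386, hg38, GENCODE 44). PROZ had an FPKM of 5.72, 5.68 and 4.48 with siC and 14.2, 15 and 16.1 with siI1, a log2 fold change of 1.501 (SE 0.11, adjusted p = 7.6e-05). The groups did not overlap. The protein-coding genes on either side, MCF2L and PCID2, had 0.23 (adjusted p = 0.12) and -0.03 (adjusted p = 0.75). The 250 bases before the RefSeq start of each of these genes are printed 5' to 3' because the 3 genes rose together, from GRCh38.p14, on the plus strand at chr13:113105541-113105790 for F7, chr13:113122549-113122798 for F10 and chr13:113158398-113158647 for PROZ. Capitals mark matches, on either strand, to GTTAAT (part of an HNF1 site), CAAAGTCCA (HNF4) or TTGCNNAA (C/EBP).
F7: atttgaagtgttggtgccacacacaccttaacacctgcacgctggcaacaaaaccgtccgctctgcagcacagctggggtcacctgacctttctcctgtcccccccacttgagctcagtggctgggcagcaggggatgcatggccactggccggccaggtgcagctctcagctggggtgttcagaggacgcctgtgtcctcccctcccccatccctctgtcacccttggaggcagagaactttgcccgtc
F10: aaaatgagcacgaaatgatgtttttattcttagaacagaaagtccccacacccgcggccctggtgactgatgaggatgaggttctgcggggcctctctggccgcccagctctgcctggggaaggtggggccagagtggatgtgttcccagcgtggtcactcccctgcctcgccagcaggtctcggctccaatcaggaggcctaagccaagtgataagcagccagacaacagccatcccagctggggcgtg
PROZ: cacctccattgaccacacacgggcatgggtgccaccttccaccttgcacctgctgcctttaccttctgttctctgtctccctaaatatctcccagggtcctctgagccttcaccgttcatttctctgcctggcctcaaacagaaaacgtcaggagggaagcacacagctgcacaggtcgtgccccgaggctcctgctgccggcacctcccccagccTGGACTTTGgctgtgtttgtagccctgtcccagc
PROZ held a match to the HNF4 motif on the opposite strand, and the windows of F7 and F10 held none of these letters. Of 35093 promoter windows of this length, 0.325% held the HNF4 motif, 6.23% the HNF1 motif and 9.05% the C/EBP motif. Windows were found for 43 members, and 1, 7 and 10 of them held these motifs, respectively. SERPINC1, PLAT, SERPINF2, A2M, C1S, C3, C8G and SERPING1 had no entry. A match describes letters in the window and is not evidence of binding.

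On log2(FPKM + 0.1), the contact system held the member with the largest change. Of its 4 genes, 3 (75%) were higher and none was lower, against 21.9% and 23% of all tested genes. KNG1 encodes kininogen, the precursor of bradykinin and the cofactor that carries prekallikrein and F11. Its FPKM was 0.431, 0.392 and 0.508 with siC, from 20 to 28 reads per library, and 20.1, 20.7 and 21.3 with siI1, from 1016 to 1127 reads. Every siI1 library was far above every siC library, and the siI1 values lay close together. The log2 fold change was 5.26 (SE 0.10, adjusted p = 1.4e-06), the highest on this scale among all 19436 tested genes. KLKB1, prekallikrein, which releases bradykinin once active, had 0.262, 0.199 and 0.230 with siC and 0.926, 1.00 and 1.19 with siI1. These values rest on 8 to 12 and 37 to 47 reads per library, do not overlap, and gave a log2 fold change of 1.78 (SE 0.21, adjusted p = 0.00062). F11, activated by F12 and thrombin, rose by 1.32 (adjusted p = 4.6e-05). F12 had 1.86, 2.86 and 2.62 with siC and 2.48, 2.33 and 2.999 with siI1. These groups overlapped, and the log2 fold change of 0.10 (adjusted p = 0.69) turned negative with equal sums of FPKM (-0.06) and without siC library 1 (-0.08) or siI1 library 3 (-0.0016).

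KNG1 has HRG as a neighbor on chromosome 3, both on the plus strand within 84.2 kb (chr3:186660216-186744410). HRG encodes histidine-rich glycoprotein, a plasma protein that binds plasminogen and heparin. It had 1 read in each siC library, an FPKM of 0.0127, 0.0145 and 0.0134, and 49 to 53 reads in each siI1 library, an FPKM of 0.716, 0.719 and 0.739. From 3 against 152 reads in all, the ratio of siI1 to siC was 53.7, with a 95% range of 18.0 to 263 that covers counting error only. The groups could not overlap, given how HRG passed the filter, and no test result is given. FETUB, the gene before HRG, which encodes the plasma protease inhibitor fetuin-B, rose by 2.70 (adjusted p = 2.4e-05), and EIF4A2, the gene after KNG1, had 0.02 (adjusted p = 0.79). The windows before the RefSeq starts of KNG1 (chr3:186717109-186717358) and HRG (chr3:186665764-186666013), on the plus strand of GRCh38.p14, are shown with the same capitals. The RefSeq start of HRG lies inside the gene as annotated by GENCODE, so its window does too.
KNG1: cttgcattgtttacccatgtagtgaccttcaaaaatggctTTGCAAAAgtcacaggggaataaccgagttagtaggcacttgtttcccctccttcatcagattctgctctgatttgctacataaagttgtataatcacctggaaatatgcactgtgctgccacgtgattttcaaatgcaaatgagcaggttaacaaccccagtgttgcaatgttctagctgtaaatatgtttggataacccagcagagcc
HRG: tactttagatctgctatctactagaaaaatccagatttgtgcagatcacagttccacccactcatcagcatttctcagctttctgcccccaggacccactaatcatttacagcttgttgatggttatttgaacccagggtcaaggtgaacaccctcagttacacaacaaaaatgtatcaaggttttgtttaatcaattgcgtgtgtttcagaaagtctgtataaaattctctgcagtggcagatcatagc
KNG1 held a single match, to the C/EBP motif, starting 210 bases before that start, and HRG held none.

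The genes of fibrin formation did not move together. FGA, FGB and FGG, neighbors on chromosome 4, encode the chains of fibrinogen. FGG had an FPKM of 207, 193 and 204 with siC and 119, 134 and 122 with siI1, without overlap. It fell by 0.68 on the log2 scale (SE 0.07, adjusted p = 0.00027). FGB rose by 0.35 (adjusted p = 0.0050), and FGA had -0.14 (adjusted p = 0.12). FGA was lower with equal sums of FPKM (-0.31, adjusted p = 0.0033, range over all alternatives 0.0033 to 0.59). F13B, the carrier subunit of the factor that crosslinks fibrin, had 2.37, 2.04 and 2.71 with siC and 10.7, 7.43 and 7.94 with siI1. The groups did not overlap and siI1 library 1 was the highest, with a log2 fold change of 1.82 (SE 0.16, adjusted p = 0.00019).

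Of the 7 anticoagulants, 3 (42.9%) were higher and 3 (42.9%) lower, against 21.9% and 23% of all tested genes. TFPI, which blocks the complex of tissue factor and F7, had an FPKM of 30.9, 31.5 and 31.6 with siC and 9.87, 9.70 and 10.1 with siI1. Both groups were tight and well apart, with a log2 fold change of -1.65 (SE 0.05, adjusted p = 3.0e-06). PROZ, described above, was among the higher ones, together with the thrombin inhibitors SERPIND1, heparin cofactor II (1.40, adjusted p = 8.5e-06), and SERPINC1, antithrombin (1.12, adjusted p = 5.1e-05). PROS1, protein S, a cofactor of activated protein C, had 39.6, 38.1 and 38.2 with siC and 33.5, 28.2 and 28.2 with siI1. All siI1 values were below the siC values, by a log2 fold change of -0.37 (SE 0.08, adjusted p = 0.0077). SERPINA5, the protein C inhibitor, had -0.20 (adjusted p = 0.036). That call was lost with median centring (-0.11, adjusted p = 0.20, range 0.00028 to 0.20), without the filter or without the mean-variance trend at an unchanged -0.20, and on leaving out either siI1 library 2 or 3 or any siC library, with log2 fold changes of -0.23 to -0.19 and adjusted p-values of 0.058 to 0.11 for the left-out libraries. SERPINA5 also shares annotated exons on the same strand with SERPINA4, so its reads may be split between the genes. PROC, protein C, had 0.13 (adjusted p = 0.42), with 47.4, 62.1 and 64.8 in the siI1 libraries, and it was higher without siI1 library 1 (0.27, adjusted p = 0.0038, range 0.0038 to 0.81).

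Fibrinolysis held members with large changes in both directions, with 3 (42.9%) higher and 2 (28.6%) lower among 7 members besides HRG. The shares were 21.4% and 22.8% of all genes without those that passed through 1 group alone. PLAU, the urokinase that activates plasminogen, had an FPKM of 6.81, 7.83 and 7.47 with siC and 1.48, 1.23 and 1.01 with siI1. The groups did not overlap, and the log2 fold change was -2.49 (SE 0.14, adjusted p = 3.1e-05). Its receptor PLAUR fell by 1.26 (adjusted p = 0.00050). SERPINF2, the plasmin inhibitor alpha-2-antiplasmin, had 75.7, 70.7 and 73.7 with siC and 191, 239 and 246 with siI1. Its siI1 values were all far above the siC values, with a log2 fold change of 1.61 (SE 0.10, adjusted p = 4.4e-05). CPB2, a carboxypeptidase that slows fibrinolysis, rose by 1.13 (adjusted p = 2.4e-05), and VTN, vitronectin, which stabilizes the plasminogen activator inhibitor, rose by 0.84 (adjusted p = 0.00056). Urokinase and its receptor thus moved opposite to the plasmin inhibitor in Hep-G2, under each scaling. PLG, plasminogen, and PLAT had 8 to 18 and 7 to 20 reads per library and were not called (-0.39, adjusted p = 0.32 and 0.30, adjusted p = 0.50), though PLG was lower without the mean-variance trend (adjusted p = 0.044, range 0.044 to 0.56).

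Of the 2 broad inhibitors, SERPINA1 rose from the siC values given above to 1172, 1374 and 1398 with siI1, without overlap (log2 fold change 0.63, SE 0.11, adjusted p = 0.0033). A2M had 669, 639 and 648 with siI1, of which the first lies above the lowest siC value (-0.13, SE 0.09, adjusted p = 0.26). With equal sums of FPKM it was lower (-0.30, adjusted p = 0.023, range 0.023 to 0.75).

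At the start of complement, 4 of 6 members (66.7%) were higher and 1 (16.7%) was lower, against 21.9% and 23% of all tested genes. C1R, a protease of the first component, had an FPKM of 0.829, 0.854 and 0.813 with siC and 3.86, 4.72 and 4.62 with siI1. All siI1 libraries stood clear of the siC libraries, and the log2 fold change was 2.27 (SE 0.12, adjusted p = 2.6e-05). C1S, the partner protease, rose by 1.22 (adjusted p = 2.5e-05). MBL2, mannose-binding lectin, which recognizes sugars on microbes, had 4.22, 3.23 and 3.65 with siC and 0.497, 0.308 and 0.503 with siI1. Its siI1 values rest on 16 to 24 reads per library, the groups did not overlap, and the log2 fold change was -2.84 (SE 0.21, adjusted p = 7.6e-05). MASP2, the protease that acts with MBL2, rose by 1.01 (adjusted p = 0.00080), while MASP1 had 0.07 (adjusted p = 0.54). The lectin and its protease thus changed in opposite directions. C2, which forms the C3 convertase with C4, rose by 0.57 (adjusted p = 0.026), a call lost on leaving out siC library 1 or 3 or siI1 library 2 or 3, with log2 fold changes of 0.47 to 0.57 and adjusted p-values of 0.072 to 0.088. C2 shares exons with CFB, and C1R with C1RL, on the same strand.

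C3 had 435, 439 and 440 with siI1 against the siC values above, 3 libraries within a narrow range and without overlap, a log2 fold change of 0.83 (SE 0.06, adjusted p = 9.8e-05). CFB, factor B of the alternative pathway, had -0.19 (adjusted p = 0.44) on 40 to 57 reads per library. Among the terminal components, 3 of 5 tested members (60%) were higher and 1 (20%) was lower, against 21.9% and 23% of all tested genes. C8G, the small subunit of C8, had an FPKM of 15.7, 16.8 and 16.2 with siC and 3.47, 6.51 and 7.30 with siI1. The siI1 library 1 was the lowest of the group, all siI1 values were below all siC values, and the log2 fold change was -1.55 (SE 0.26, adjusted p = 0.0028). C8B, another subunit of C8, had 1.42, 1.40 and 1.07 with siC and 3.22, 3.65 and 2.96 with siI1. Here too the groups were apart, in the opposite direction, by a log2 fold change of 1.28 (SE 0.15, adjusted p = 0.00061). C8A, encoded next to C8B, had 0.11 (adjusted p = 0.55). The genes of the 3 subunits therefore comprised 1 higher, 1 lower and 1 not called. C6 and C5 follow C3 in the assembly of the pore. C6 had 0.747, 0.867 and 0.672 with siC and 2.01, 1.88 and 1.59 with siI1, a log2 fold change of 1.16 (SE 0.17, adjusted p = 0.0014). C5 had 16.6, 15.1 and 16.9 with siC and 35.7, 29.9 and 30.1 with siI1, a log2 fold change of 0.97 (SE 0.09, adjusted p = 0.00018). Neither gene showed overlap between the groups.

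The 7 complement regulators split into 2 (28.6%) higher, 3 (42.9%) lower and 2 not called. Of all tested genes, 21.9% were higher and 23% lower. SERPING1, the C1 inhibitor, which also restrains kallikrein and F12, had an FPKM of 1.66, 1.65 and 1.13 with siC and 3.22, 4.23 and 3.72 with siI1. Its groups did not overlap, with a log2 fold change of 1.29 (SE 0.18, adjusted p = 0.0014). C4BPB encodes the beta chain of C4b-binding protein, through which protein S attaches. It had 29.4, 32.2 and 30.2 with siC and 19.5, 22.9 and 22.0 with siI1, again without overlap (log2 fold change -0.51, SE 0.07, adjusted p = 0.0015). C4BPA, the alpha chain gene beside it, moved the other way, by 0.39 (adjusted p = 0.00069). CD46 had 39.0, 34.5 and 38.3 with siC and 31.9, 24.6 and 23.6 with siI1, and siI1 library 1 came closest to the siC values. Its log2 fold change was -0.49 (SE 0.12, adjusted p = 0.014), and the call was lost, with log2 fold changes of -0.47 to -0.44 and adjusted p-values of 0.052 to 0.055 on leaving out siC library 1 or 3 or siI1 library 2. CD55, which speeds the decay of convertases, had -0.49 (adjusted p = 0.027), and its call was lost with median centring (adjusted p = 0.054, range 0.0057 to 0.088) and on leaving out any library but siI1 library 3, with log2 fold changes of -0.54 to -0.40 and adjusted p-values of 0.051 to 0.088. CFI, the protease that inactivates C3b, had 0.08 (adjusted p = 0.22), and CD59, which blocks the pore, had -0.04 (adjusted p = 0.59). With median centring CFI was higher (0.18, adjusted p = 0.028, range 0.028 to 0.45), and with equal sums of FPKM CD59 was lower (-0.20, adjusted p = 0.018, range 0.018 to 0.95).

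**Figure D3:**
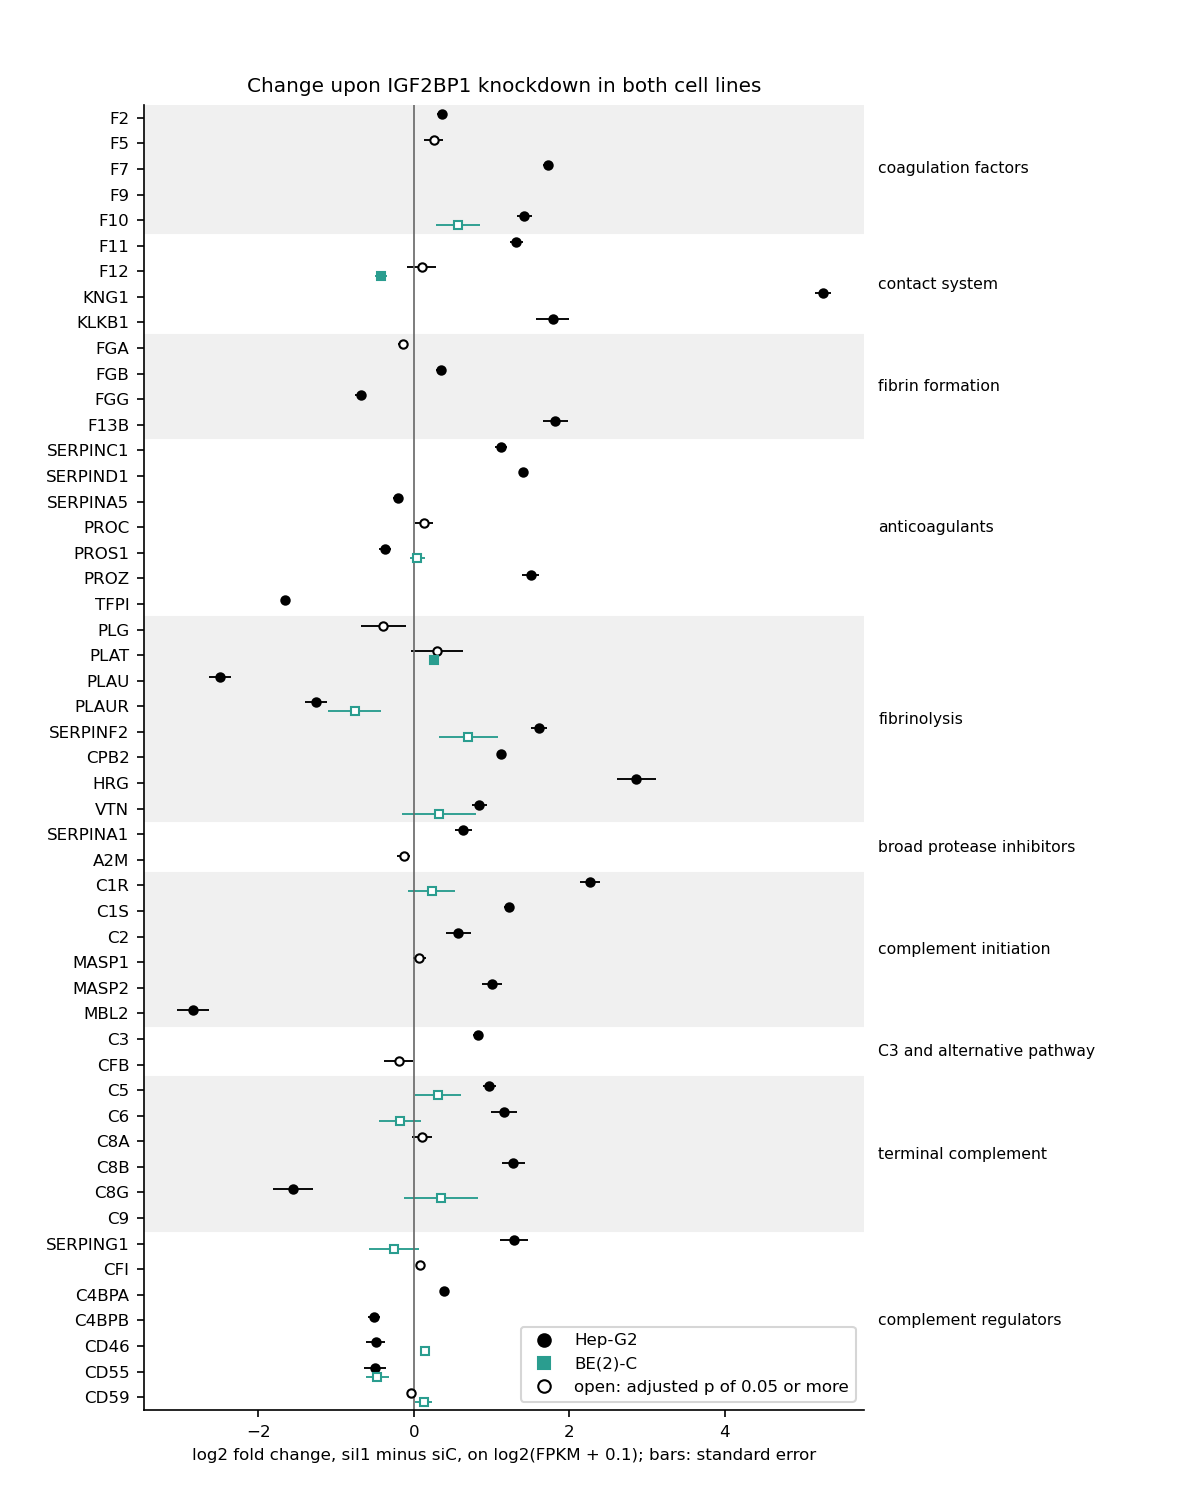
Log2 fold change of siI1 over siC on log2(FPKM + 0.1) (horizontal) for each tested member in Hep-G2 (black circles) and BE(2)-C (green squares), by role, with bars for the standard error and open symbols for an adjusted p of 0.05 or more. In Hep-G2 26 members, HRG among them, are filled to the right of 0 and 11 to the left, and in BE(2)-C PLAT and F12 are the only filled squares.

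At a gap of at most 100 kb, the members formed 8 groups of neighboring genes, F7-F10-PROZ, HRG-KNG1, KLKB1-F11, C1S-C1R, C8A-C8B, C4BPB-C4BPA, FGB-FGA-FGG and C2-CFB. In F7-F10-PROZ, KLKB1-F11 and C1S-C1R, every member was higher in Hep-G2, and in HRG-KNG1 KNG1 was, while HRG passed the filter through siI1 alone. C4BPB and C4BPA as well as FGG and FGB had opposite signs, and in C8A-C8B and C2-CFB a single gene was higher. Other protein-coding genes inside or beside C1S-C1R were higher too, namely LPCAT3 (0.34), C1RL (0.65) and RBP5 (1.42), while EMG1 was not called (0.07). Genes beside other groups were higher as well, CYP4V2 before KLKB1 (0.75), C1orf168 before C8A-C8B (2.097) and NELFE after CFB (0.56), and PFKFB2 before C4BPB was lower (-1.16). PLRG1 before FGB (-0.06), EHMT2 before C2 (0.37) and ZBTB12 inside C2-CFB (0.37) were not called. No test compared the groups with other neighbors. Exons of 21 members overlap those of other listed genes, 6 on the same strand and 16 on the opposite strand. The libraries were strand-specific, but the strand setting of the counting is not given in the sources used here, so reads of such pairs, F12 with GRK6, MASP2 with TARDBP and C5 with CNTRL among them, may be mixed.

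**Figure D4:**
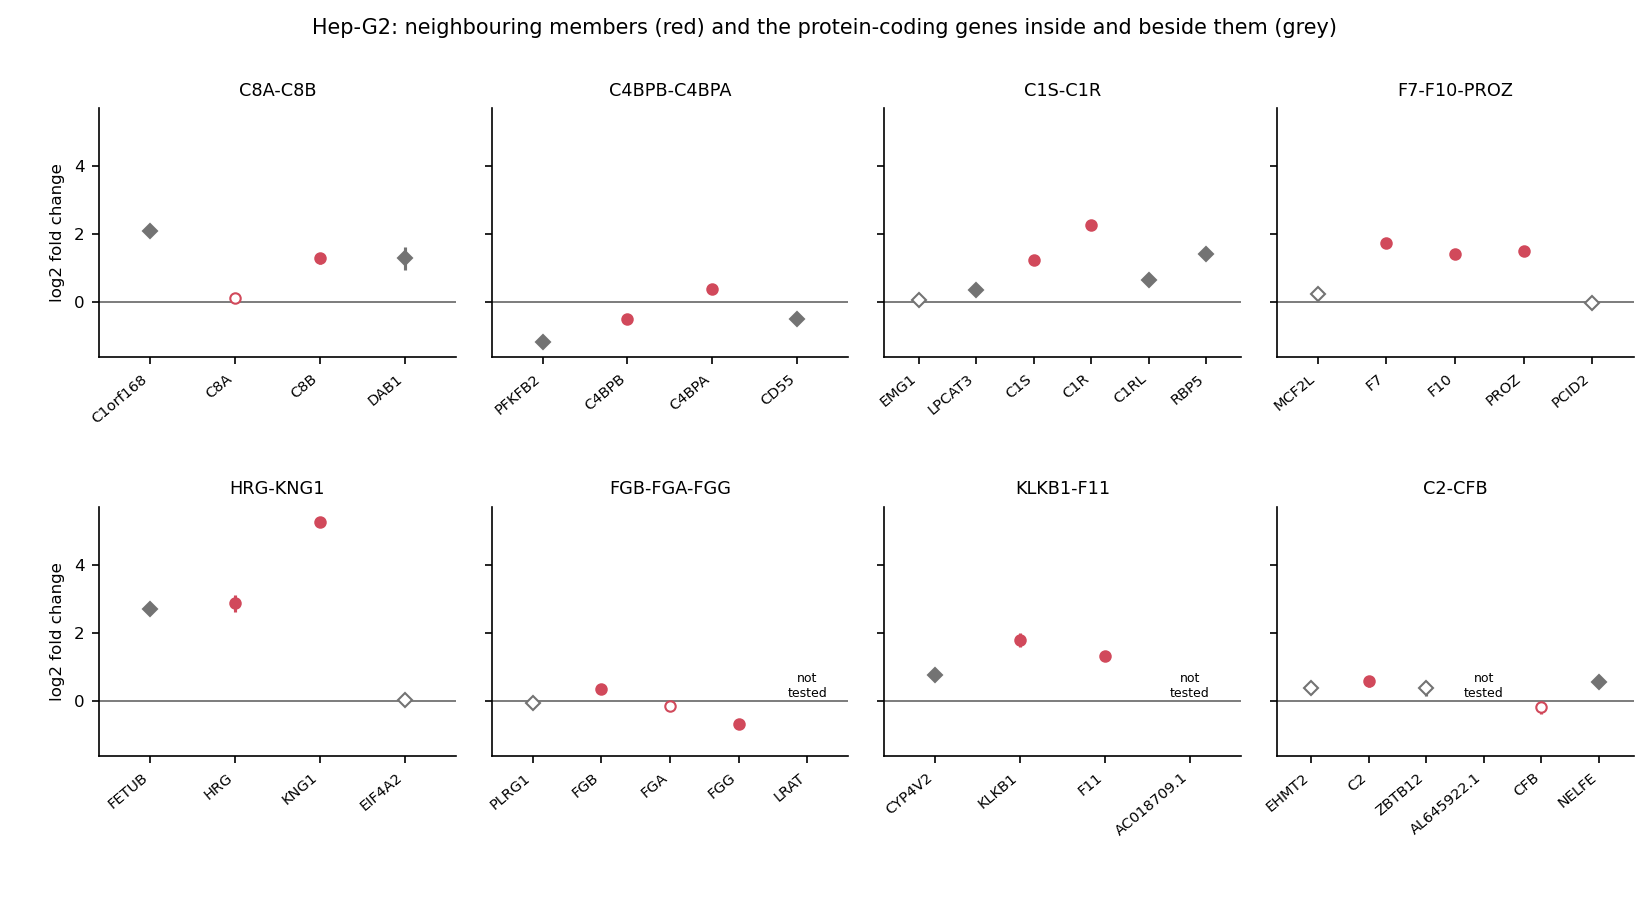
Log2 fold changes in Hep-G2 (vertical) of neighboring members (red circles) and of the protein-coding genes inside and beside each group (grey diamonds), in chromosomal order, with bars for the standard error and open symbols for genes that were not called. The members of F7-F10-PROZ lie between 1.42 and 1.72 and the genes on either side at 0.23 and -0.03, while CD55, grey here, is a member that lies beyond the gap of 100 kb.

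In BE(2)-C, few members could be tested, and their shares of calls were not tested against those of all genes. The filter was passed by 15 of 51 members. Of these, 1 (6.67%) was higher, against 13.3% of all 18656 tested genes, and 1 (6.67%) was lower, against 14.8%. The first of these backgrounds was unstable, since 2489 genes were higher with all libraries and 1634, 1564 and 1519 without siI1 library 1, 2 and 3. The median log2 fold change of the 15 members was 0.15, against 0.02 for all tested genes. F12 had 25.9, 22.3 and 23.9 with siC and 19.5, 17.02 and 17.3 with siI1, without overlap, and fell by 0.42 on the log2 scale (SE 0.08, adjusted p = 0.0074). PLAT had 10.8, 10.3 and 10.3 with siC and 12.9, 12.9 and 11.9 with siI1, also without overlap, a log2 fold change of 0.26 (SE 0.05, adjusted p = 0.013). Without siI1 library 2 of BE(2)-C, PLAT was not called (0.24, adjusted p = 0.055, range 0.0021 to 0.055), and no member was higher. CD46 had 8.51, 8.21 and 8.501 with siI1, all above its siC values, and was not called (0.15, SE 0.05, adjusted p = 0.071), except with median centring (0.19, adjusted p = 0.031, range 0.031 to 0.19). CD55 was at the edge of the threshold (-0.47, SE 0.15, adjusted p = 0.052), and it was lower with limma-voom on reads (adjusted p = 0.0093, range 0.0093 to 0.14), with a pseudocount of 0.01 and with a filter at an FPKM of 1. Limma-voom also gave a lower PLAUR (-1.03, adjusted p = 0.030, range 0.030 to 0.32), on 9 to 35 reads per library. PROS1 had 4.01, 4.39 and 4.73 with siC and 4.75, 4.09 and 4.73 with siI1, overlapping groups with a log2 fold change of 0.05 (SE 0.10, adjusted p = 0.76). The fibrinogen chain genes FGA, FGB and FGG were at 0 in every library.

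The change upon knockdown was then compared between the cell lines for the 15 members tested in both. It differed for 9 of them at an adjusted p below 0.05, against 40.2% of the 15362 genes tested in both. C1R had the largest difference, with 2.27 in Hep-G2 and 0.23 in BE(2)-C (difference 2.03, SE 0.27, adjusted p = 0.00013), where it had 0.147, 0.0963 and 0.126 with siC and 0.125, 0.150 and 0.216 with siI1. C8G fell in Hep-G2 and had 0.35 in BE(2)-C (difference -1.90, adjusted p = 0.020), on 3 to 11 reads per library there. SERPING1 (difference 1.53, adjusted p = 0.0049) and C6 (1.34, adjusted p = 0.0035) rose in Hep-G2 and had -0.25 and -0.18 in BE(2)-C. These genes had few reads in BE(2)-C, at most 20 per library for C1R, C6, C8G and SERPING1. CD46 was better covered, with 830 to 1146 reads per library in BE(2)-C, and differed by -0.64 (SE 0.14, adjusted p = 0.0030). PROS1, with 249 to 325 reads, differed by -0.42 (SE 0.12, adjusted p = 0.018). The differences of F10 (0.85, adjusted p = 0.031), C5 (0.66, adjusted p = 0.029) and SERPINF2 (0.91, adjusted p = 0.047) were close to the threshold. In BE(2)-C, F10 had 0.591, 0.364 and 0.364 with siC and 0.879, 0.480 and 0.764 with siI1, and C5 had 0.245, 0.143 and 0.120 with siC and 0.238, 0.217 and 0.231 with siI1. SERPINF2 had 0.148, 0.0664 and 0.0914 with siC and 0.110, 0.271 and 0.337 with siI1. Groups overlapped in all 3. No difference was called for F12 (0.52, adjusted p = 0.060), PLAT, PLAUR, VTN, CD55 and CD59.

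These differences were not equally stable. Those of F10, C5 and SERPINF2 were not called with a pseudocount of 0.01 (0.76, 0.51 and 0.53) or with equal sums of FPKM (0.67, 0.48 and 0.72), and their adjusted p reached 0.084, 0.19 and 0.44. The smaller constant thus lowered the difference of SERPINF2 by more than that of F10. The call of F10 was also lost without Hep-G2 siC 1 or 3, Hep-G2 siI1 2 or 3, BE(2)-C siC 1 or BE(2)-C siI1 2 (0.63 to 0.85, adjusted p = 0.056 to 0.072). That of C5 was lost without Hep-G2 siC 1 or 2, Hep-G2 siI1 1 or BE(2)-C siI1 2 (0.57 to 0.68, adjusted p = 0.052 to 0.066). SERPINF2 lost its call without any siC library of Hep-G2, Hep-G2 siI1 2 or 3, BE(2)-C siC 1 or 3 or BE(2)-C siI1 1 (0.59 to 0.94, adjusted p = 0.053 to 0.11), and C8G without BE(2)-C siI1 2 (-1.67, adjusted p = 0.051). In the other direction, F12 differed without Hep-G2 siC 2 (0.64, adjusted p = 0.025) and with median centring (0.57, adjusted p = 0.039), with a range of 0.025 to 0.16, and CD59 differed with equal sums of FPKM (-0.35, adjusted p = 0.023, range 0.023 to 0.59). With a pseudocount of 1, F12, PLAUR and VTN differed too. Without Hep-G2 siI1 1, the library that stood apart, 8 members differed instead of 9. The differences of C1R, C6, SERPING1, CD46 and PROS1 were called with the other pseudocounts, under each scaling and on leaving out any library. The filter, the trend, limma-voom and a minimum fold change were not varied for the difference.

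Other genes of the pathways were counted for comparison. Of 29 further complement genes, 7 were tested in Hep-G2, with 1 (14.3%) higher and 2 (28.6%) lower, against 21.9% and 23% of all tested genes. C7, which joins the pore after C6, had 2.36, 2.11 and 2.31 with siC and 0.283, 0.224 and 0.272 with siI1 (log2 fold change -2.72, SE 0.17, adjusted p = 4.2e-05), opposite to C5 and C6. COLEC11, a collectin of the lectin pathway, rose by 0.74 (adjusted p = 0.0066), and C4A fell by 0.46 (adjusted p = 0.011), though C4A and C4B are nearly identical and their reads may be split. In BE(2)-C, where 14.8% of all tested genes were lower, 5 were tested and 1 (20%) was called. This was CLU, clusterin, an inhibitor of the pore, with 77.7, 68.3 and 70.5 with siC and 30.5, 29.6 and 29.1 with siI1 (-1.27, SE 0.06, adjusted p = 8.6e-05). Of 23 further genes of coagulation and fibrinolysis, 18 were tested in Hep-G2. F2RL2 passed the filter through its siC libraries alone and is left out here. Of the other 17 genes, 2 (11.8%) were higher and 8 (47.1%) lower. The shares were 21.4% and 22.8% of all genes without those that passed through 1 group alone. The median log2 fold change of the 17 genes was 0.05 as deposited and -0.11 with equal sums of FPKM. With F2RL2 counted, it was -0.17 as deposited. F2RL1, a receptor cleaved by proteases, had 78.0, 78.1 and 83.3 with siC and 8.95, 7.80 and 8.24 with siI1 (-3.25, SE 0.07, adjusted p = 1.4e-06), and F2R fell by 2.29 (adjusted p = 1.3e-05). TFPI2, a relative of TFPI, fell by 2.20 (adjusted p = 0.0037) on at most 32 reads per library. Without siI1 library 1, 6 of these 17 genes were higher instead of 2, and with median centring 5. Of the further complement genes, 3 of 7 were higher without that library, with CLU and CFD added. The background rose too. Among all 19003 genes that did not pass through 1 group alone, 4058 were higher as deposited, 4420 without that library and 4816 with median centring. In BE(2)-C, 13 were tested and 3 (23.1%) were lower, against 14.8% of all tested genes. These were S100A10 (-2.03, adjusted p = 0.0016), ANXA2 (-0.41, adjusted p = 0.0021) and LMAN1 (-0.38, adjusted p = 0.0063). S100A10 and ANXA2 together bind plasminogen at the cell surface, and LMAN1 is a cargo receptor for factors V and VIII.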

How the data were processed

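Poly-A RNA was sequenced as paired reads of 150 bp from strand-specific libraries. The authors clipped reads with Cutadapt 1.14, aligned them to hg38 with HISAT2 2.1.0, summarized them per gene with featureCounts 1.5.3 on Ensembl release 89 and tested each cell line with edgeR 3.30.3 on values scaled by TMM. SAMtools 1.5 is named in the submitters' processing notes. FPKM of every library and gene lengths came from the deposited tables, whose unit was checked on the values. Further columns, in which the authors deposited the log2 fold change, p-value and FDR of their own test, were not used. FPKM times gene length, scaled by an effective size of each library, gave whole reads for 100% of nonzero values, within 0.1 read.

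Each cell line was tested with limma 3.58.1 in R 4.3.3 on log2(FPKM + 0.1), two-sided and with a mean-variance trend. A gene entered when 3 of 6 libraries reached 0.1 FPKM, and p-values were adjusted by Benjamini-Hochberg over all tested genes, with a threshold of 0.05. The difference between cell lines was a contrast over all 12 libraries. An exact permutation test of 3 against 3 libraries cannot give a p below 0.1, so none was run. On simulated reads with known changes, limma recovered most changed genes, but false calls took a larger share of its calls than the threshold sets. Limma-voom recovered all changed genes with fewer false calls. The members and lists were chosen with earlier results of these data known. Values per library are given for members called in Hep-G2 with the 2 largest absolute changes of their role, for members called in BE(2)-C or in the difference, and for the 3 highest siC levels per cell line. For the other gene lists, up to 3 called genes with the largest changes per cell line were named, and further genes were named after their values were seen. Alternatives covered the pseudocount, filter, scaling, trend, replicate block, limma-voom on reads, a minimum fold change and each library left out, and for the difference between cell lines the pseudocount, scaling, block and left-out libraries only. The study describes 3 biological replicates per condition, and p-values measure the spread between these. Gene positions are those of GENCODE 44 and promoter windows those of RefSeq on GRCh38.p14. Tables were made with Python 3.11.15, pandas 2.3.3, NumPy 2.4.6 and version 1.17.8 of data.table, and plots with Matplotlib 3.10.9.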

Additional observations from a re-analysis of the deposited data

Results flagged for a closer look

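The effect of the knockdown differed between the cell lines for 9 members by the limma contrast of both log2 fold changes, Hep-G2 minus BE(2)-C. The difference was positive for C1R (2.03), SERPING1 (1.53), C6 (1.34), SERPINF2 (0.91), F10 (0.85) and C5 (0.66), and negative for C8G (-1.90), CD46 (-0.64) and PROS1 (-0.42). In BE(2)-C, no library held more than 32 reads for any of C1R, C6, C8G, SERPING1, SERPINF2, C5 and F10, so their changes there are poorly determined. CD46 and PROS1 had at least 249 reads in every library. The calls of F10, C5, SERPINF2 and C8G were lost on leaving out single libraries, as given with the results.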

How the results depend on the processing

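Of the called members, 33 of 37 in Hep-G2 and 1 of 2 in BE(2)-C kept their call in every alternative that tested them, a minimum fold change aside. HRG, which passed the filter through siI1 alone, is among the 33 and in the ranges below. On leaving out single libraries, 25 to 27 members were higher and 8 to 10 lower in Hep-G2. BE(2)-C then had 0 to 1 higher and 1 to 1 lower members, and 6 to 9 differed between the cell lines. The other alternatives gave 18 to 27 higher and 5 to 14 lower in Hep-G2, and 6 to 12 that differed. The cause was not tested.

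With an absolute log2 fold change of at least 1 as well, 18 members stayed higher, or 17 without HRG, and 5 lower in Hep-G2. For BE(2)-C, limma then gave 0 higher and 0 lower members. All genes higher and lower were then 1571 and 1340 for Hep-G2 against 561 and 312 for BE(2)-C. In BE(2)-C, 2 members were lower with a pseudocount of 0.01 and 2 with a filter at an FPKM of 1, 3 with limma-voom on reads, and 2 were higher with median centring. Genes higher in BE(2)-C numbered 2489 with all libraries and 1634, 1564 and 1519 without siI1 1, 2 and 3.

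Some changes that were not called turned their sign. With equal sums of FPKM these were F12 (-0.060), PROC (-0.039), MASP1 (-0.088), C8A (-0.056) and CFI (-0.083) in Hep-G2 and the difference of PLAT (-0.080), and with median centring CD59 in Hep-G2 (0.057) and the difference of CD55 (0.031). The difference of PLAT was -0.18 with a pseudocount of 1. On leaving out single libraries, the change ran from -0.078 to 0.22 for F12 in Hep-G2 and from -0.013 to 0.12 for PROS1 in BE(2)-C, and the difference from -0.14 to 0.20 for PLAT and from -0.15 to 0.069 for CD55.

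No pairing of the libraries by replicate number was seen, though 3 libraries per group cannot exclude it. Deviations of siC and siI1 libraries with the same number correlated across genes with r of 0.0625, 0.0351 and -0.0062 for Hep-G2, then 0.0225, -0.0102 and -0.0028 for BE(2)-C, and 5 of 12 libraries correlated best with their own number. With the replicate block, 27 members were higher and 11 lower in Hep-G2, against 4318 and 4502 of all tested genes. BE(2)-C had 1 of each, and 9 differed. F5 (adjusted p = 0.042) and the difference of F12 (0.043) gained a call, and the difference of SERPINF2 lost it (0.094).

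With 3 libraries per group, 1 siRNA pool and 1 cell line per tumor type, other pools and cells were not analysed here. Levels and changes of members with few reads, such as HRG, PLG, PLAT and KLKB1 in Hep-G2 and most members in BE(2)-C, are poorly determined.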

Other observations

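Other secreted plasma proteins of hepatocytes, a list of acute-phase and related proteins, were counted as well. Of 20 genes, 16 were tested in Hep-G2. ITIH4 passed the filter through its siI1 libraries alone and is left out here. Of the other 15 genes, 9 (60%) were higher and 4 (26.7%) lower. The shares were 21.4% and 22.8% of all genes without those that passed through 1 group alone. The median log2 fold change of the 15 genes was 0.85, or 0.68 with equal sums of FPKM. Summed over all 20 genes, the FPKM was 3723, 3878 and 3724 with siC against 6719, 7986 and 8117 with siI1. APOH, AMBP and AHSG held the highest values, with means of 1016, 978 and 823 with siC and 2454, 1770 and 1702 with siI1. HPX, the heme-binding hemopexin, went from 6.56, 6.49 and 6.48 to 41.1, 48.9 and 48.8, without overlap (2.81, SE 0.08, adjusted p = 2.9e-06). SERPINA3, alpha-1-antichymotrypsin, moved the other way, from 4.24, 2.80 and 3.63 to 0.473, 0.576 and 0.478 (-2.57, SE 0.19, adjusted p = 7.7e-05). The other lower genes were CP (-2.18), SAA4 (-1.27) and LRG1 (-1.11). FETUB rose by 2.70. ORM1 and ORM2 rose by 1.99 and 1.88, but they are nearly identical and their reads may be split. With equal sums of FPKM, ITIH2 and ITIH3 were lower too. None of the 20 genes passed the filter in BE(2)-C.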
